A study of Mus musculus with 54 samples.

Results

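Testis RNA was compared between second-generation (F2) male mice sired by a dose 1 father on a control mother and F2 males whose parents were both control animals. The comparison rested on 6 of the 54 libraries of the series, 3 in each cross, chosen by the cross named in the sample labels and column headers. The series measured RNA in mouse testis and ovary after exposure of the first generation (F1) to a mixture of ibuprofen, 2-hydroxy-ibuprofen, diclofenac and ethinylestradiol (EE2) in the drinking water. Exposure of the F1 began in the womb at 8.5 days post-coitum, and the F2 animals carry the treatment label "none". Dose 1 contained 11.3 ng/L ibuprofen, 90 ng/L 2-hydroxy-ibuprofen, 22.5 ng/L diclofenac and 2.25 ng/L EE2. Dose 2, which enters below as the dose of another F2 cross, contained 113, 225, 112 and 45 ng/L of the same compounds.

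In the dose 1 father cross the F1 father had received dose 1 and the F1 mother was a control. In the control cross neither parent had received the mixture. For dosed males the protocol sets killing at 35 days post-partum, it gives no separate age for the F2, and the sources used here name no strain. No transgene, deletion or other allele is named for any group. The labels distinguish the 3 libraries of a cross only by the letters A, B and C and do not say whether they came from separate animals or litters. The p-values below therefore measure a spread between libraries, which for comparisons within F2 testis was estimated over all 18 libraries fitted together. A difference between litters or fathers cannot be told apart from one between crosses.

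The testis of a mouse of that age holds spermatogonia, spermatocytes, and round and elongating spermatids, together with Sertoli, Leydig, peritubular myoid and immune cells. Spermatogonia that begin to differentiate carry the receptor KIT, which binds KIT ligand from Sertoli cells. A father contributes sperm, with its DNA, chromatin marks and RNA, to offspring that were not themselves dosed, and such crosses are used to look for effects of an exposure through the male line. Ibuprofen and diclofenac block cyclooxygenases, the enzymes that begin prostaglandin synthesis, and EE2 is a synthetic estrogen.

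The 6 libraries held between 37.0 and 43.5 M (mega, 1e6) counts assigned to genes, within the 31.6 to 48.2 M of all 18 F2 testis libraries. Levels are given in CPM, a gene's count per 1 M counts of its library after scaling for library composition, listed in the order A, B, C. No pair of libraries in a group agreed within sampling noise, with the lowest ratio of chi-square to degrees of freedom at 7.43. Among the 6, dose 1 father A lay farthest out on the second principal component of the F2 testis libraries, and control cross A farthest out on the first. Markers of germ cells, Sertoli cells and Leydig cells were present in all 6 libraries, as the values below show.

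Of 19379 genes tested, 39 passed at an adjusted p under 0.05 by edgeR's quasi-likelihood test, which is 0.201% of the genes. In the dose 1 father cross 9 of them (0.0464%) rose and 30 (0.155%) fell. The higher genes included Kit, the deacetylase Sirt2, the cholesterol hydroxylase Cyp46a1 and ezrin. The lower genes included the ribosomal RNA precursor Rn45s, the nuclear RNA Malat1, the miRNA locus Mir6236 and the tRNA synthetase gene Lars2, and held 8 genes annotated as long non-coding. In all 39 genes the 3 libraries of one cross lay beyond all 3 of the other, as they did in 1676 genes higher (8.65%) and 1752 genes lower (9.04%) among all those tested.

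The calls depended on single libraries and on the libraries fitted together. Without control cross A, B or C the count was 5, 14 and 7, without dose 1 father B or C it was 3 and 6, and without dose 1 father A it was 53. Rn45s, Malat1 and 1700001J04Rik passed in all 6 of these fits, and Mir6236 and Lars2 in 4. A further 28 genes passed in 1 to 3, with Kit, Sirt2 and Ezr in 1 alone, that without dose 1 father A. The last 6 genes passed in none, among them Riiad1, Ccn2, Sppl2c, Cpne5 and Pcdha8. With all 27 testis libraries in 1 edgeR fit none of the 39 passed, the lowest adjusted p being 0.143 for Rn45s, and with the 6 libraries alone 7 of them did. DESeq2 called all 39 of them among 217 genes. The smallest p that exact permutation of 3 against 3 libraries can reach is 0.1, so p-values are those of edgeR's fit across all genes.

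**Figure D1:**
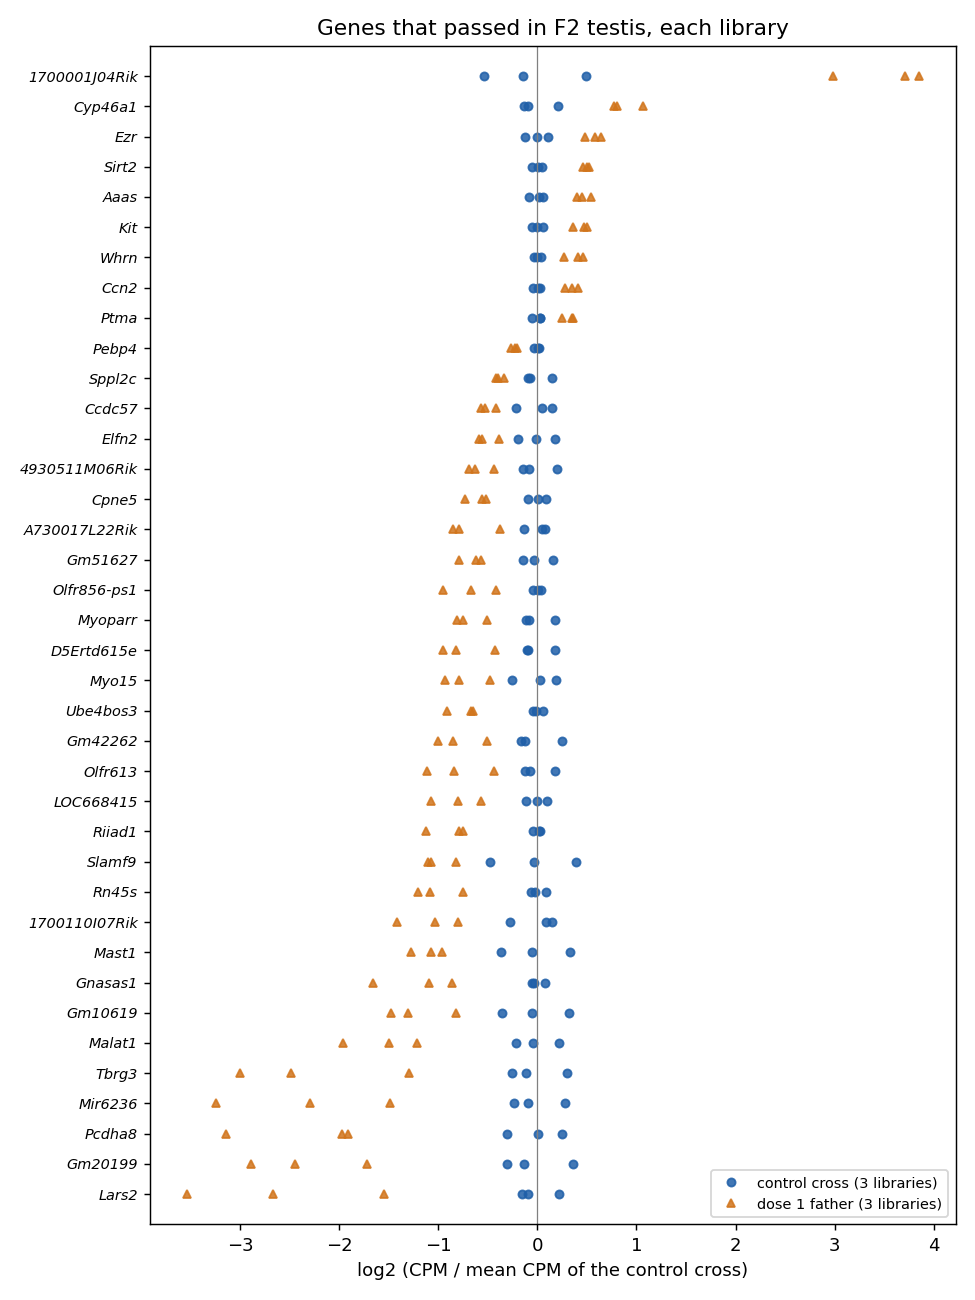
Each row is 1 of 38 of the 39 genes that passed, each circle a control cross library and each triangle a dose 1 father library, drawn as the log2 ratio of its CPM to the control cross mean. The 3 triangles lie to 1 side of the 3 circles in every row, furthest to the right for 1700001J04Rik and furthest to the left for Lars2.

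Among the lower genes, Rn45s is the annotated 45S precursor from which the large and small ribosomal RNAs are cut in the nucleolus. It measured 267, 239 and 246 CPM in the control cross and 149, 109 and 119 CPM in the dose 1 father cross. Every dose 1 father library was below every control library, and Rn45s fell by 1.00 on the log2 scale (SE 0.104, edgeR adjusted p = 0.000352).

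Malat1 is an abundant long non-coding RNA of nuclear speckles. Its level was 1073, 793 and 890.4 CPM in the control cross against 396, 326 and 237 CPM in the dose 1 father cross. The groups did not overlap, and the log2 fold change was -1.52 (SE 0.198, edgeR adjusted p = 0.00299), a level 2.88 times lower.

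Lars2 encodes the mitochondrial leucyl-tRNA synthetase. Counts assigned to it were high in the control cross at 3937, 3165 and 3047 CPM, and reached 1160.3, 532 and 292 CPM in the dose 1 father cross. The spread within the dose 1 father libraries was wide, with library A far above C, but all lay below the controls, and the log2 fold change was -2.35 (SE 0.358, edgeR adjusted p = 0.0122). It did not pass without control cross A or without dose 1 father B, where the adjusted p reached 0.0820. Of 17 mitochondrial tRNA synthetases tested, which charge the tRNAs of that organelle, 10 were higher and 7 lower with a median log2 fold change of 0.02, and Lars2 alone passed. The 17 together held 3336 to 4215 CPM in the control cross and 579 to 1460 CPM in the dose 1 father cross, most of it from Lars2. Whether the counts over Lars2 came from its mRNA or from other RNA over the locus was not tested.

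Mir6236 names a hairpin locus, and in libraries from an mRNA kit its counts measure longer RNA over that locus, not the mature miRNA. The mature sequence, from RefSeq (GRCm38.p6, chr9:110281353-110281371, plus strand), is printed with its seed, bases 2 to 8, in capitals because it identifies the locus behind one of the largest decreases.

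mmu-miR-6236: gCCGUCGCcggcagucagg

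The counts over the Mir6236 locus were 242, 187 and 169 CPM in the control cross and 71.0, 40.8 and 21.1 CPM in the dose 1 father cross. The dose 1 father libraries were again all lower, with a log2 fold change of -2.17 (SE 0.323, edgeR adjusted p = 0.0112). The call was lost without control cross A or dose 1 father B, with an adjusted p of up to 0.0645. The locus lies within the span of another tested gene, Gm39429, whose log2 fold change was 0.83 (edgeR adjusted p = 0.426).

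A list of 17 tested genes, made up of nuclear-retained, ribosomal and small nuclear RNAs and Lars2, had 14 members lower and 3 higher. Its 3 called members are Rn45s, Malat1 and Lars2, described above, and the list was drawn up with earlier results of these data known, so it is not independent evidence of their direction. Its median log2 fold change was -0.37, against 0.00 over all genes tested. A further pair of nuclear RNAs was just short of the threshold. Lncpint, a p53-induced long non-coding RNA, had values of 1.88, 1.00 and 0.847 CPM against 0.410, 0.240 and 0.457 CPM (log2 fold change -1.74, edgeR adjusted p = 0.0695). Kcnq1ot1, the antisense RNA of an imprinted domain, was at 215, 169 and 171 CPM against 141, 122 and 106 CPM (log2 fold change -0.59, edgeR adjusted p = 0.0777). Neat1, the scaffold of paraspeckles, had a log2 fold change of -0.06 (edgeR adjusted p = 0.850).

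The other F2 testis groups are set beside these 4 levels. Apart from the control cross, the other 4 crosses held 582 to 3069 CPM for Lars2 and 40.5 to 173 CPM for Mir6236. Dose 1 father A lay inside both of these ranges, and dose 1 father B inside that of Mir6236. For Rn45s the group means were 251 CPM in the control cross, 249 with a dose 1 mother, 177 with a dose 2 father, 157 with a dose 2 mother, 137 with 2 dose 2 parents and 125 with a dose 1 father. The dose 1 father libraries overlapped those of the dose 2 parents and of the dose 2 mother, and none of the other crosses. Malat1 means ran from 919 CPM in the control cross over 799.6, 665 and 473 CPM (dose 1 mother, dose 2 father, dose 2 both) to 319.6 CPM with a dose 1 father and 312 CPM with a dose 2 mother. The last pair did not differ beyond their spread. In F1 testis the range was wide within a single group: Lars2 measured 513, 1547 and 385 CPM in the F1 controls and 1215, 969.9 and 1122 CPM at F1 dose 1. The libraries were made with an mRNA kit, and the counts of Rn45s do not separate precursor from mature ribosomal RNA. The part of ribosomal RNA carried into the libraries in these differences was not tested.

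**Figure D2:**
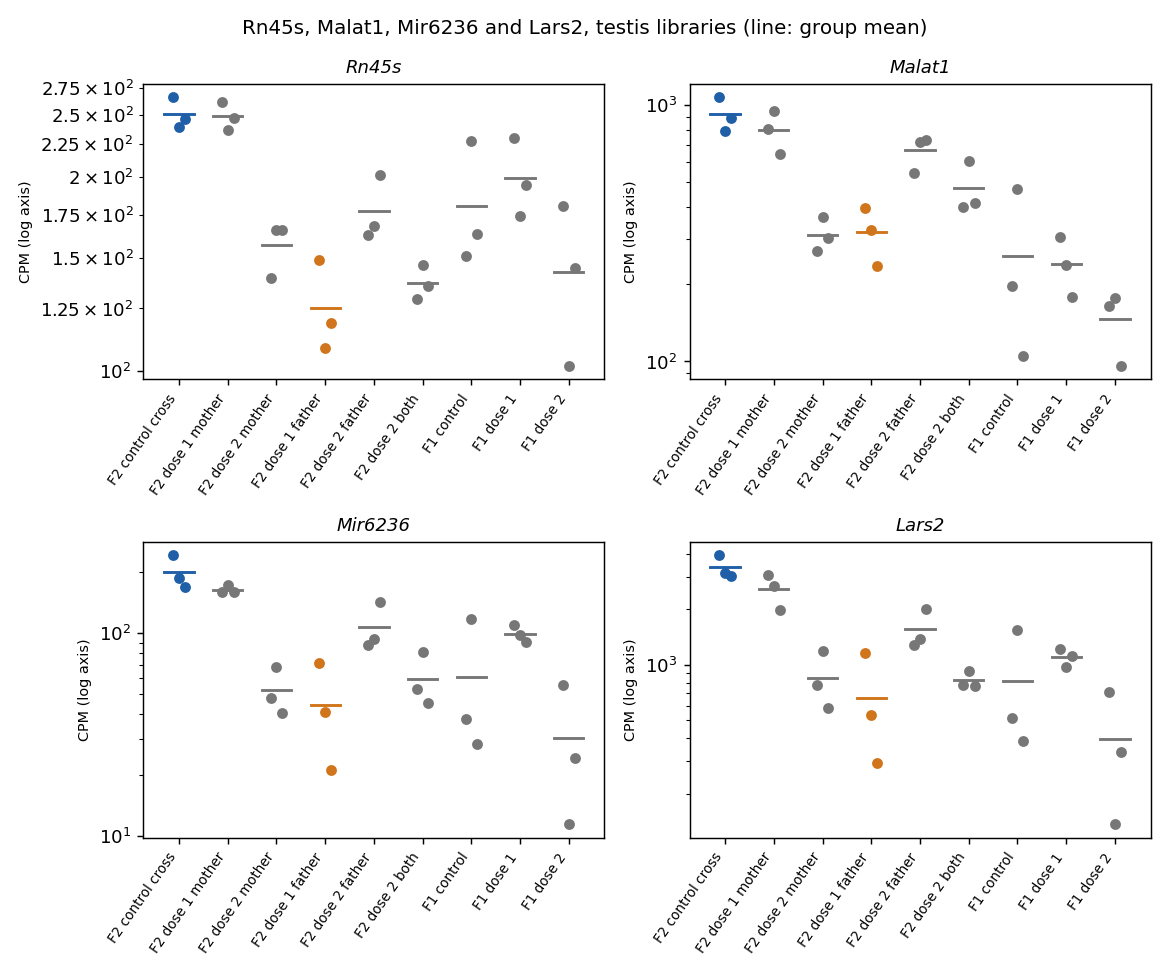
CPM on a log axis for Rn45s, Malat1, Mir6236 and Lars2 in every testis library, by group, with a line at each group mean; F1 libraries were scaled in a separate fit. The 3 dose 1 father libraries lie below the 3 control cross libraries in each panel, while F1 controls spread as widely as from 385 to 1547 CPM for Lars2.

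Antisense and other transcripts not annotated as protein-coding made up the next group of lower genes. Ube4bos3, transcribed from the strand opposite Ube4b, measured 37.2, 38.1 and 40.0 CPM in the control cross and 24.3, 24.5 and 20.5 CPM in the dose 1 father cross. These 3 libraries were lower than all 15 other F2 testis libraries, and the log2 fold change was -0.74 (SE 0.110, edgeR adjusted p = 0.0112). The opposite gene Ube4b, a ubiquitin ligase, had a log2 fold change of 0.08 (edgeR adjusted p = 0.559).

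Gnasas1 is the antisense RNA of the imprinted Gnas locus, which encodes the stimulatory G protein alpha subunit. Its level was 8.67, 8.03 and 7.94 CPM in the control cross and 4.51, 2.61 and 3.86 CPM in the dose 1 father cross, a log2 fold change of -1.16 (SE 0.191, edgeR adjusted p = 0.0165). Here the control cross stood apart, above all 15 other F2 testis libraries. Gnas itself had a log2 fold change of 0.15 (edgeR adjusted p = 0.386).

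Myoparr, a non-coding RNA from the myogenin promoter, was at 27.3, 22.9 and 22.3 CPM against 17.0, 13.7 and 14.4 CPM (log2 fold change -0.69, SE 0.112, edgeR adjusted p = 0.0165). Tbrg3 fell from 4.04, 3.04 and 2.75 CPM to 1.33, 0.587 and 0.411 CPM (log2 fold change -2.08, SE 0.372, edgeR adjusted p = 0.0292). Gm20199 fell from 1.30, 0.923 and 0.821 CPM to 0.308, 0.187 and 0.137 CPM. Myoparr, Tbrg3 and Gm20199 had no match in GENCODE and are not counted among the long non-coding genes. Tbrg3 and Gm20199 overlap Tcf20 and Arih1, whose log2 fold changes were -0.15 and -0.09 (edgeR adjusted p = 0.296 and 0.526). For Myoparr, Tbrg3 and Gm20199 the libraries of the crosses were separate, and in each the call was lost when any of several single libraries was left out. Of the 39 genes that passed, 38 were matched to RefSeq and 22 of those overlap another gene. No source used here says whether counting used the strand, so reads of a gene and its overlapping partner cannot be told apart.

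The lower direction was general among non-coding genes. Of 1832 long non-coding genes tested, 68.7% had a lower value in the dose 1 father cross and their median log2 fold change was -0.12. Of 16692 protein-coding genes 46.4% were lower, with a median of 0.01, and of 291 pseudogenes 63.2% were lower, with a median of -0.10. At an unadjusted p under 0.05, 257 long non-coding genes (14.0%) were lower and 40 (2.18%) higher, whereas protein-coding genes divided into 926 lower (5.55%) and 1055 higher (6.32%). Over all genes the same cut gave 1305 lower (6.73%) and 1112 higher (5.74%). The long non-coding share of all counts was 2.01 to 2.18% in the control cross and 1.85 to 2.02% in the dose 1 father cross. These ranges overlapped slightly. Without Malat1 the ranges were 1.93 to 2.07% in the control cross and 1.82 to 1.98% in the dose 1 father cross, a wider overlap. Group medians of the share of all counts were 2.05% in the control cross, 2.09% with a dose 1 mother and 2.04% with a dose 2 father. They were 1.91% with a dose 1 father, 1.91% with a dose 2 mother and 1.96% with 2 dose 2 parents. A lower share was thus not particular to the dose 1 father cross.

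The share of lower long non-coding genes was 66.9% against the dose 1 mother cross and 65.4% against the dose 2 father cross. All 3 comparisons share the dose 1 father libraries. In F1 testis, with other libraries throughout, dose 1 against control gave 33.0% lower and a median log2 fold change of 0.16. Genes are not independent replicates, so no test was put on these shares.

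**Figure D3:**
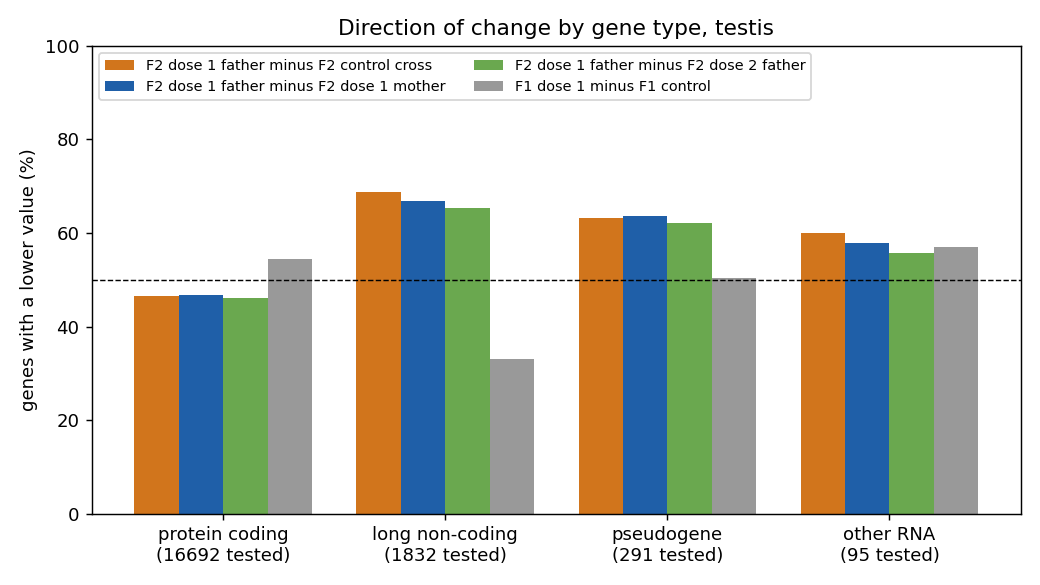
Bars give the percentage of tested genes of each type with a lower value in the first-named group; the dashed line marks 50%. In the 3 comparisons of the dose 1 father cross, 65.4 to 68.7% of long non-coding genes are lower against 46.2 to 46.7% of protein-coding genes, and in the F1 comparison 33.0% of long non-coding genes are lower.

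Among the lower genes 13 were protein-coding. Mast1, a microtubule-associated serine/threonine kinase, measured 4.83, 2.99 and 3.71 CPM in the control cross and 1.59, 1.97 and 1.83 CPM in the dose 1 father cross (log2 fold change -1.10, SE 0.192, edgeR adjusted p = 0.0246). Riiad1, which carries a regulatory-subunit dimerisation domain, was at 51.8, 49.8 and 52.1 CPM against 30.4, 29.6 and 23.6 CPM (log2 fold change -0.88, SE 0.172, edgeR adjusted p = 0.0407). The dose 1 father libraries were below all 15 other F2 testis libraries for Riiad1, while Celf3 on the opposite strand had a log2 fold change of -0.31 (edgeR adjusted p = 0.0928).

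Slamf9, a receptor of the SLAM family on immune cells, was at 4.58, 3.42 and 2.52 CPM against 1.67, 1.63 and 1.99 CPM (log2 fold change -0.99, edgeR adjusted p = 0.0485).

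Myo15, the motor protein of inner-ear stereocilia, fell from 24.5, 17.97 and 21.8 CPM to 11.3, 15.4 and 12.4 CPM (log2 fold change -0.72, edgeR adjusted p = 0.0407). The odorant receptor Olfr613 fell from 22.1, 18.7 and 18.01 CPM to 14.5, 10.96 and 9.07 CPM (log2 fold change -0.77, edgeR adjusted p = 0.0407). The receptor pseudogene Olfr856-ps1 fell by 0.66 on the log2 scale (edgeR adjusted p = 0.0315). Olfactory receptor genes form a large family with close copies, and reads can be shared among them.

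The remaining lower protein-coding genes moved by smaller steps at higher levels. Sppl2c, an intramembrane protease of spermatids, measured 359, 364 and 423 CPM in the control cross and 290.4, 287 and 302 CPM in the dose 1 father cross (log2 fold change -0.38, edgeR adjusted p = 0.0407). The control cross was here the group apart, above the 283 to 347 CPM of the other 4 F2 crosses. Pebp4, of the phosphatidylethanolamine-binding family, gave 219, 221 and 213 CPM against 189, 186 and 181 CPM. That is the smallest change of the 39 at -0.23 (edgeR adjusted p = 0.0315), and its dose 1 father libraries were the lowest of all F2 testis. Cpne5, a calcium-dependent membrane-binding copine, Ccdc57, a centriolar coiled-coil protein, and Elfn2, a synaptic adhesion protein, fell by 0.60, 0.50 and 0.51. For Cpne5 the control cross libraries lay above all other F2 testis libraries.

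Clustered protocadherins are adhesion proteins whose alternative first exons are each read from a promoter of their own. Of 32 tested, 28 were lower and 4 higher, with a median log2 fold change of -0.58, and 1 passed. That was Pcdha8, which measured 0.604, 0.488 and 0.715 CPM in the control cross and 0.154, 0.160 and 0.0685 CPM in the dose 1 father cross (log2 fold change -2.23, edgeR adjusted p = 0.0407). Its neighbours in the alpha cluster, Pcdha5 and Pcdha9, had log2 fold changes of -1.02 and -2.29 without passing (edgeR adjusted p = 0.131 and 0.138). The alpha genes share their last exons, so reads there cannot be assigned to a single member. The summed level of the list was 69.5 to 78.4 CPM in the control cross and 70.5 to 73.5 CPM in the dose 1 father cross, and these ranges overlap.

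Of the 9 higher genes, Kit is the one that marks a stage of spermatogenesis: it encodes the receptor tyrosine kinase of differentiating spermatogonia and is also present in Leydig cells. Kit measured 25.7, 23.8 and 24.8 CPM in the control cross and 34.4, 31.8 and 35.1 CPM in the dose 1 father cross. All 3 dose 1 father libraries were above all 15 other F2 testis libraries, whose highest value outside the control cross was 31.0 CPM. The log2 fold change was 0.45 (SE 0.0737, edgeR adjusted p = 0.0165), or 1.36-fold. Kit passed in only 1 of the 6 fits with a library left out, and across these its edgeR adjusted p reached 0.124. With the 6 libraries alone it did not pass (edgeR adjusted p = 0.0777).

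Of 15 tested markers of differentiating spermatogonia, Kit among them, 11 were higher and 4 lower with a median log2 fold change of 0.10, Kit alone passed, and 5 were higher at an unadjusted p under 0.05. At that cut 5.74% of all genes tested were higher. Their summed level was 1442 to 1467 CPM in the control cross and 1402 to 1557 CPM in the dose 1 father cross, which overlap. Dmrt1, a transcription factor of spermatogonia, was at 17.6, 16.9 and 17.9 CPM against 23.2, 18.4 and 22.8 CPM (log2 fold change 0.30, edgeR adjusted p = 0.168). Among 16 markers of undifferentiated spermatogonia 11 were higher and 5 lower with a median of 0.16, and none passed. Zbtb16, which maintains these cells, was at 10.2, 10.1 and 9.003 CPM against 14.0, 11.04 and 13.2 CPM (log2 fold change 0.38, edgeR adjusted p = 0.150). Of 20 genes of KIT and GDNF signalling 16 were higher, with a median of 0.08. The ligand gene Kitl had a log2 fold change of 0.12 (edgeR adjusted p = 0.782), and the kinase Akt1, downstream of the receptor, one of 0.38 (edgeR adjusted p = 0.162).

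Sirt2 encodes an NAD-dependent deacetylase of tubulin and histones. It measured 138, 129.8 and 135 CPM in the control cross and 193, 185 and 189.7 CPM in the dose 1 father cross. The spread within each cross was small beside the gap, and the log2 fold change was 0.49 (SE 0.0765, edgeR adjusted p = 0.0132). The 12 libraries of the other 4 F2 crosses ran from 134 to 183 CPM, the highest being 1 dose 2 mother library. None of the other 29 tested histone modifiers and variants passed.

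Cyp46a1 encodes cholesterol 24-hydroxylase, which turns cholesterol into an oxysterol that can leave the cell. It was at 10.48, 12.9 and 10.2 CPM in the control cross and 19.2, 19.6 and 23.5 CPM in the dose 1 father cross, above all 15 other F2 testis libraries (log2 fold change 0.89, SE 0.146, edgeR adjusted p = 0.0165). Of 25 cholesterol genes tested, with Cyp46a1 among them, 15 were higher and 10 lower, with a median of 0.04.

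Ezr encodes ezrin, which ties the plasma membrane to the actin cytoskeleton. It gave 15.2, 13.9 and 16.4 CPM against 21.2, 22.7 and 23.6 CPM (log2 fold change 0.57, SE 0.107, edgeR adjusted p = 0.0366). Its relative moesin (Msn) had a log2 fold change of 0.12 (edgeR adjusted p = 0.681). For Ezr the dose 1 father range overlapped those of the dose 2 mother and of 2 dose 2 parents. Whrn, the scaffold protein whirlin, which binds the Myo15 product in the ear, was at 23.8, 25.02 and 24.3 CPM against 33.6, 32.5 and 29.4 CPM (log2 fold change 0.38, edgeR adjusted p = 0.0227). The other 4 F2 crosses lay between, at 25.8 to 29.1 CPM.

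Aaas, a nuclear pore protein, was at 31.9, 31.0 and 28.9 CPM in the control cross and 44.5, 40.3 and 41.8 CPM in the dose 1 father cross (log2 fold change 0.46, edgeR adjusted p = 0.0198). The control cross was here the lowest of the F2 groups. Ccn2, a matricellular growth factor, was at 30.3, 31.2 and 31.8 CPM against 41.3, 39.5 and 37.8 CPM (log2 fold change 0.35, edgeR adjusted p = 0.0407). Ptma, the acidic nuclear protein prothymosin alpha, was at 88.3, 93.4 and 93.4 CPM against 109, 118 and 117 CPM (log2 fold change 0.32, edgeR adjusted p = 0.0407). For Ptma too the control cross was the group apart, below the 95.7 to 119 CPM of the other 4 F2 crosses. Its relative Ptms lay just outside the threshold (0.44, edgeR adjusted p = 0.0556).

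1700001J04Rik, an antisense transcript in GENCODE, had the largest fold. It was at 0.209, 0.326 and 0.159 CPM in the control cross, from 9, 12 and 6 reads, and at 3.03, 3.33 and 1.83 CPM in the dose 1 father cross, from 118, 125 and 80 reads. The log2 fold change was 3.55 (SE 0.417, edgeR adjusted p = 0.00110). The control cross was the group apart: the 12 libraries of the other 4 F2 crosses held 0.887 to 4.503 CPM. In F1 testis 1 control library (0.171 CPM) and 1 dose 1 library (0.162 CPM) were as low as the F2 control cross.

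**Figure D4:**
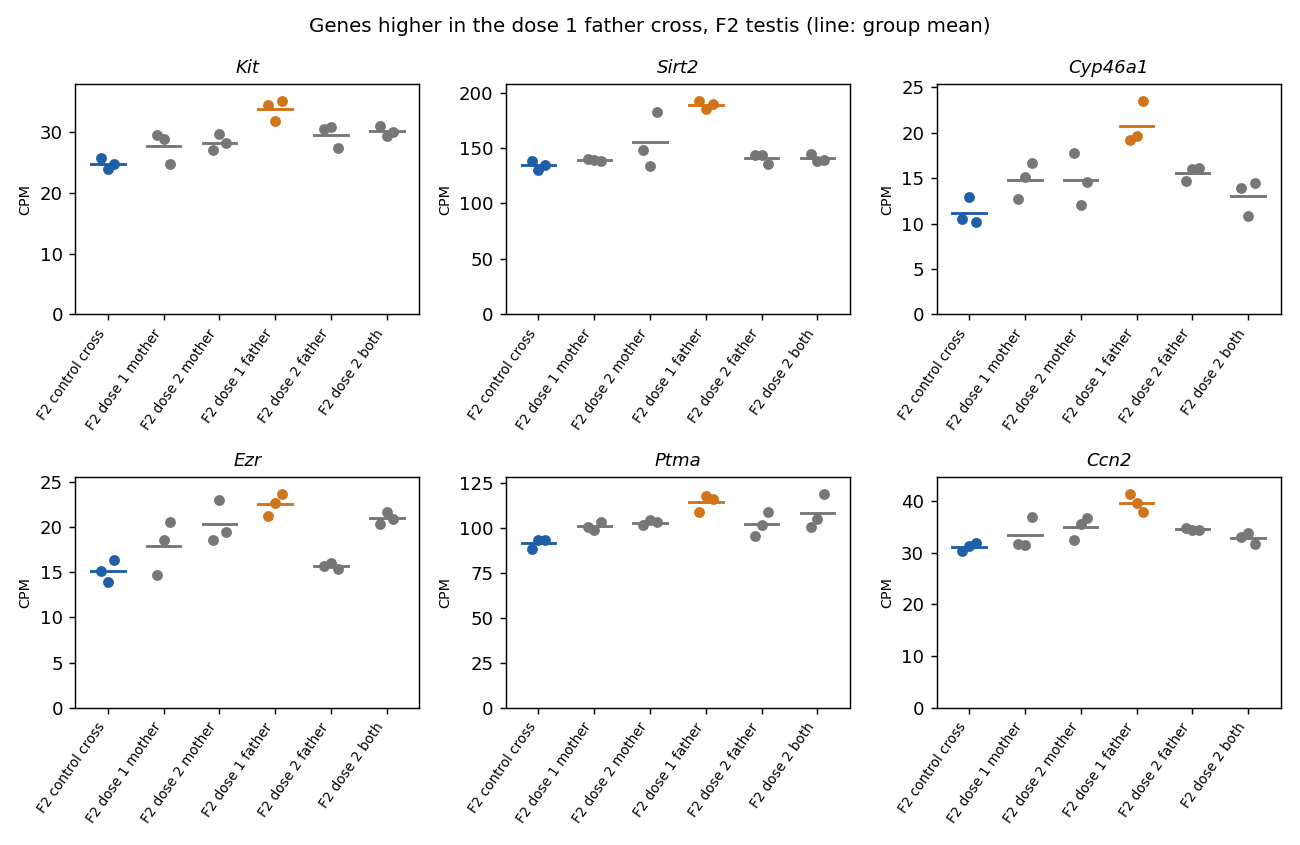
CPM of 6 higher genes in every F2 testis library, grouped by cross, with a line at each group mean and axes from 0. For Kit, Sirt2, Cyp46a1 and Ccn2 the 3 dose 1 father libraries lie above all 15 others, while Ezr overlaps the dose 2 mother and the dose 2 parents and Ptma the dose 2 parents.

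The upstream sequences of Kit, Sirt2 and Cyp46a1 are printed as examples chosen after their values were seen, to show the GC box, the GGGCGG element of many promoters. For Whrn and Ccn2, which are not printed, the dose 1 father libraries also separated from all other F2 crosses. Whrn holds a GC box too, and Ccn2 is not among the genes found to hold one. Each is the 250 bases before the RefSeq start (GRCm38.p6, plus strand for all 3), written 5′ to 3′ with matches to GGGCGG, or to its complement CCGCCC, in capitals. Kit is chr5:75574737-75574986, Sirt2 is chr7:28766502-28766751 and Cyp46a1 is chr12:108334066-108334315.

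Kit: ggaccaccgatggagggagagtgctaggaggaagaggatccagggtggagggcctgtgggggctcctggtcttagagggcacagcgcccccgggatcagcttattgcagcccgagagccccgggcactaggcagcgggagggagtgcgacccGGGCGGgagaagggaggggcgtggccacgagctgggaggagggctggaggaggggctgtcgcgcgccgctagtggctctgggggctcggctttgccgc
Sirt2: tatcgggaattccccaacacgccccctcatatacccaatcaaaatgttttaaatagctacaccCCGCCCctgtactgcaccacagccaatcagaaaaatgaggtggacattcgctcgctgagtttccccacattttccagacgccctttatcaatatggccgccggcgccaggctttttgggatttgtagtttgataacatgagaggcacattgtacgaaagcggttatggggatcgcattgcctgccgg
Cyp46a1: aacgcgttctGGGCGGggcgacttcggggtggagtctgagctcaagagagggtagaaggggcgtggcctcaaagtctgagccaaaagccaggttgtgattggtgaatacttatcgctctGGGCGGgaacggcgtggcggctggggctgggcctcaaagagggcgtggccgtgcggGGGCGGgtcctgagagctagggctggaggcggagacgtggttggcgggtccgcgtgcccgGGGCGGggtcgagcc

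The Cyp46a1 sequence holds 4 GC boxes, those of Kit and Sirt2 1 each. GGGCGG was found on either strand in 7 of 8 higher genes with a sequence, in 5 of 19 lower genes with one, and in 49.7% of 15154 promoters of tested genes. CCAAT, searched alike, was in 3 of 8, 6 of 19 and 35.9%. The full palindromic estrogen response element was in none of these genes and in 0.0264% of promoters, and the cyclic AMP element TGACGTCA in none of them and in 2.34%. Each motif was counted separately, and a match describes only the letters of this window.

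Markers of the testicular cell types differed in direction, with 1 passing gene in these lists, Kit. Of 25 round spermatid markers 22 were lower and 3 higher (median log2 fold change -0.09), 9 of them lower at an unadjusted p under 0.05 and none past the adjusted threshold. Of 28 elongating spermatid markers 26 were lower and 2 higher (median -0.13), 10 lower at an unadjusted p under 0.05. Among all genes tested, 6.73% were lower at that cut. Zpbp, a protein of the acrosome, was at 211, 222 and 221 CPM in the control cross and 199.6, 195 and 178 CPM in the dose 1 father cross (log2 fold change -0.19, edgeR adjusted p = 0.124). Odf1, of the outer dense fibres of the tail, was at 972, 882 and 929 CPM against 845, 819.9 and 647 CPM (log2 fold change -0.27, edgeR adjusted p = 0.168). In both the crosses did not overlap.

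The genes that package sperm DNA gave uneven values. Transition protein Tnp1 was at 1228, 1122 and 1094 CPM against 864, 1049 and 935 CPM, and protamine Prm1 at 1883, 1725 and 1784 CPM against 1515, 1656 and 1537 CPM. Prm2, the second protamine, was at 3489, 3589 and 3300.1 CPM against 3057, 3779 and 3198 CPM. The crosses were separate for Tnp1 and Prm1 and overlapped for Prm2, and the edgeR adjusted p-values were 0.255, 0.363 and 0.867. The summed round spermatid markers were 4940 to 5019 CPM in the control cross and 4410 to 4824 CPM in the dose 1 father cross. Summed elongating markers were 29145 to 31439 CPM against 26164 to 29781 CPM, which overlap. Meiotic prophase markers were balanced, with 20 of 34 higher and a median of 0.03.

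Sertoli, muscle and matrix genes more often had higher values. Of 31 Sertoli cell markers 26 were higher and 5 lower (median 0.13), 8 higher at an unadjusted p under 0.05, against 5.74% of all genes tested, and none past the adjusted threshold. Their summed level was 1913 to 2081 CPM in the control cross and 2098 to 2225 CPM in the dose 1 father cross. Amh, the hormone of immature Sertoli cells, was at 2.72, 3.80 and 2.89 CPM against 4.69, 4.51 and 5.41 CPM (log2 fold change 0.64, edgeR adjusted p = 0.138). Sox8, a Sertoli transcription factor, had a log2 fold change of 0.34 (edgeR adjusted p = 0.124). Of 14 peritubular myoid and smooth muscle genes 13 were higher (median 0.21), and of 22 extracellular matrix genes 19 (median 0.15), with none past the threshold in either list. Leydig cell markers did not lean to a side, with 13 of 23 higher and a median of 0.03.

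Macrophage and lymphocyte markers more often had lower values, and MHC class II and adipocyte genes higher ones. Of 16 macrophage markers 13 were lower (median -0.11), with summed levels of 397 to 441 CPM in the control cross and 365 to 405 CPM in the dose 1 father cross. Of 8 lymphocyte markers 7 were lower (median -0.23), with summed levels of 15.1 to 18.2 CPM against 11.2 to 15.2 CPM. No gene of either list passed. Of 6 tested MHC class II genes, which present antigen, 5 were higher (median 0.41), and the summed level was 20.5 to 31.7 CPM against 33.4 to 49.5 CPM. H2-Ab1 alone was at 7.86, 11.3 and 2.09 CPM against 24.4, 14.5 and 11.5 CPM (edgeR adjusted p = 0.336). Of 12 adipocyte genes 10 were higher, but their summed level ranged from 16.2 to 34.4 CPM in the control cross and 15.6 to 47.2 CPM in the dose 1 father cross. The adult globin genes Hba-a1, Hba-a2, Hbb-bs and Hbb-bt were at 0 in all 6 libraries; these genes come in near-identical copies. In whole testis, fewer cells of a type and less RNA per cell cannot be told apart, and the part of cell makeup in the 39 calls was not tested.

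**Figure D5:**
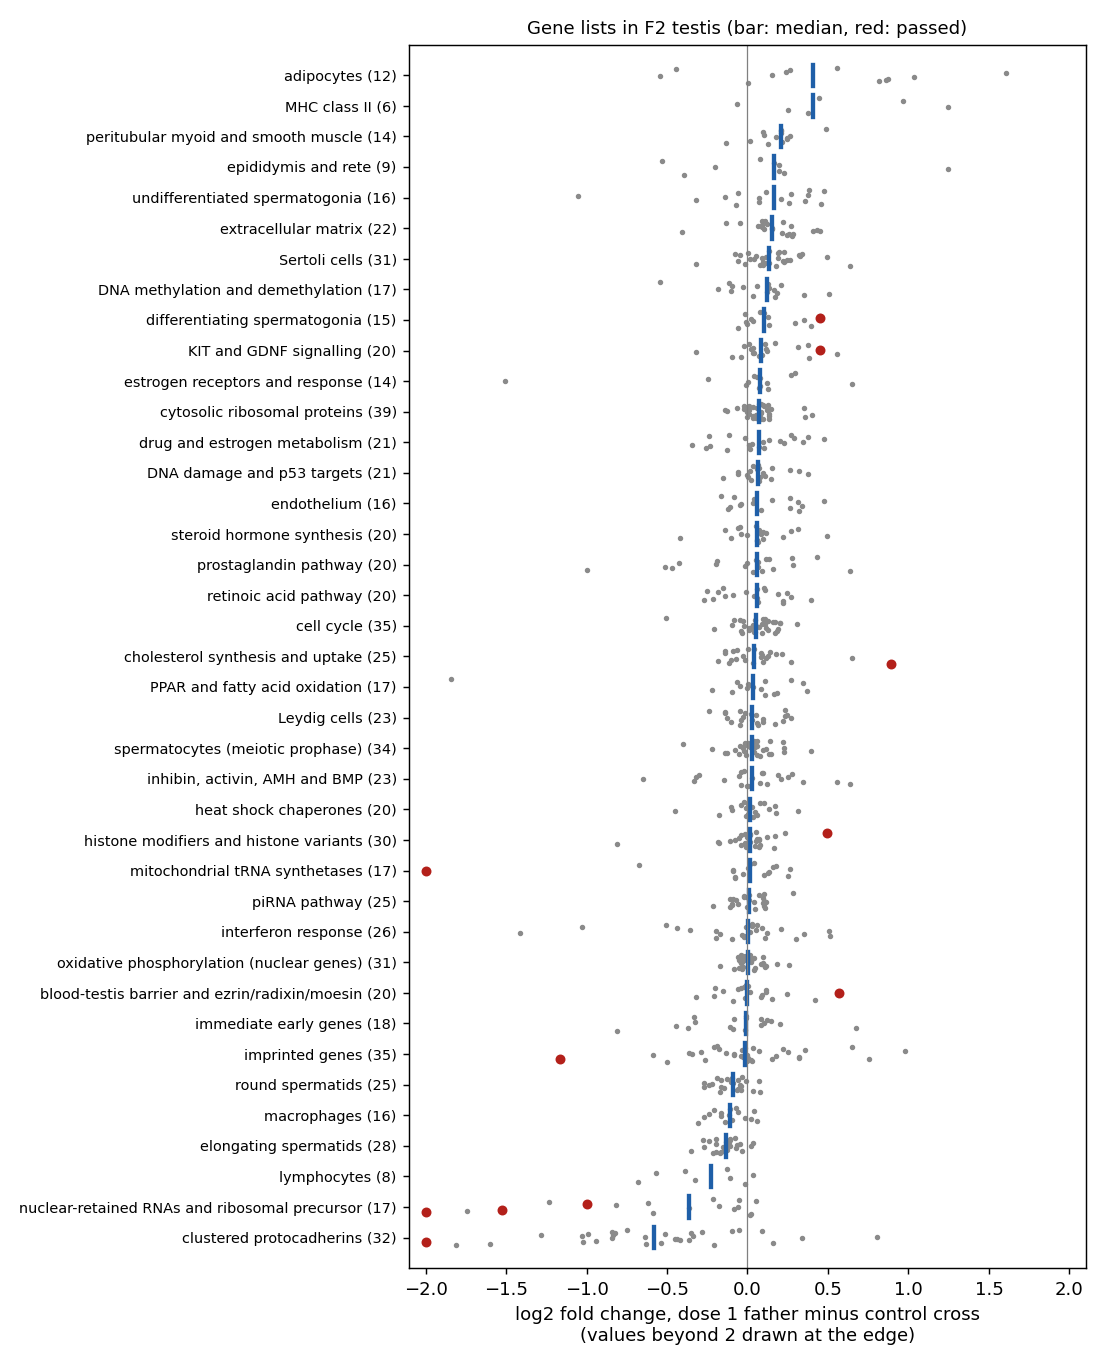
Each row is a gene list with its number of tested genes; dots are members' log2 fold changes (dose 1 father minus control cross), red dots members past the adjusted threshold, and blue bars medians. Medians run from -0.58 for clustered protocadherins to 0.41 for adipocyte and MHC class II genes, with spermatid lists left of 0 and Sertoli, muscle and spermatogonial lists right of it.

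The targets of the mixture's drugs did not pass. The cyclooxygenase gene Ptgs1 was at 0.628, 0.597 and 1.09 CPM in the control cross and 1.00, 0.960 and 0.548 CPM in the dose 1 father cross (log2 fold change 0.11, SE 0.323, edgeR adjusted p = 0.918). The prostaglandin list of 20 had 12 higher and 8 lower and a median of 0.06, and its most extreme value at an unadjusted p under 0.05 was Alox5, the 5-lipoxygenase, at -0.996 (edgeR adjusted p = 0.226). The estrogen receptor genes Esr1 and Esr2 had log2 fold changes of 0.08 (SE 0.118) and -0.01 (SE 0.398).

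Steroid synthesis gave no call among 20 genes, 13 higher and 7 lower. Star, the cholesterol carrier into mitochondria, was at 107, 78.9 and 94.9 CPM against 57.6, 116 and 98.3 CPM, so that dose 1 father A was below and B above all controls. Cyp11a1, Cyp17a1 and Hsd3b1, the enzymes from cholesterol to androgens, had log2 fold changes of 0.06, 0.10 and 0.10 with SEs from 0.132 to 0.149. Cyp19a1, the aromatase that makes estrogen, was at 10.1, 7.11 and 8.63 CPM against 5.80, 7.65 and 5.92 CPM, overlapping, with a log2 fold change of -0.42 (SE 0.161, edgeR adjusted p = 0.285).

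Genes of DNA methylation and imprinting, processes through which marks can pass from a father, gave Gnasas1 as their one call. Of 17 methylation genes 11 were higher (median 0.12). Dnmt3b, a de novo methyltransferase also listed for spermatogonia, was at 9.71, 9.66 and 7.60 CPM against 12.9, 10.3 and 11.2 CPM (log2 fold change 0.35, edgeR adjusted p = 0.197). Zfp57, which protects imprints, was at 27.4, 38.8 and 40.6 CPM against 18.7, 28.7 and 25.9 CPM (log2 fold change -0.54, edgeR adjusted p = 0.211), and there the crosses overlapped. Of 35 imprinted genes 15 were higher and 20 lower, with a median of -0.01. Of 39 cytosolic ribosomal protein genes 30 were higher (median 0.07) and none passed, with Rpl14 (0.36) and Rps2 (0.35) nearest at edgeR adjusted p-values of 0.0896 and 0.102. All of these counts are to be read beside the 9818 higher and 9561 lower of all genes tested.

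The reciprocal cross asks whether a dose 1 father and a dose 1 mother give the same testis RNA. Against the dose 1 mother cross, 8 of 19379 genes (0.0413%) passed in the dose 1 father cross, 3 higher (0.0155%) and 5 lower (0.0258%). Rn45s had 262, 237 and 248 CPM with a dose 1 mother and was lower with a dose 1 father by a log2 fold change of -0.99 (edgeR adjusted p = 0.000424). Malat1 gave -1.32, Mir6236 -1.89 and Ube4bos3 -0.77 in the same comparison (edgeR adjusted p = 0.0186, 0.0478 and 0.0151), and Sirt2 gave 0.44 (edgeR adjusted p = 0.0478). Those 5 of the 39 genes passed against both crosses, which share the dose 1 father libraries. The other 3 calls were Htatsf1, a splicing and elongation factor (0.33), Gm17089 (1.57) and Gins1, a subunit of the replicative helicase complex (-0.79).

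All 30 lower and all 9 higher genes kept their direction against the dose 1 mother cross, with no overlap in 25 and 7 of them. Among all genes 7.93% were lower and 8.33% higher without overlap in that comparison. The 39 genes had been selected with the same dose 1 father libraries, so these counts are not independent evidence. Kit was at 29.5, 28.8 and 24.8 CPM with a dose 1 mother, below all dose 1 father libraries (log2 fold change 0.29, edgeR adjusted p = 0.159). Leaving out dose 1 father A raised the count from 8 to 15, and leaving out dose 1 father B or C, or dose 1 mother A, lowered it to 1, as did dose 1 mother B (2) and C (3) less far.

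The dose of the father was examined by setting the dose 1 father cross against the dose 2 father cross. By edgeR no gene passed of 19379 (0%), the lowest adjusted p was 0.352, and 1548 genes had an unadjusted p under 0.05, 770 higher (3.97%) and 778 lower (4.01%). DESeq2 called 14 genes, edgeR on the 6 libraries alone called 9, and leaving out dose 1 father A or C gave 2 and 1. Of the 39 genes, all 30 lower ones and 8 of 9 higher ones kept their direction, the exception being 1700001J04Rik at -0.41. The groups did not overlap in 28 of the lower and 7 of the higher ones, against 6.39% lower and 7.05% higher among all genes. Here too the dose 1 father libraries were those that had selected the 39 genes, so these counts are not independent evidence. For Malat1 the libraries were 545, 720.1 and 729 CPM with a dose 2 father, above all dose 1 father libraries (log2 fold change -1.06, SE 0.196, edgeR adjusted p = 0.352). Ezr was at 15.6, 16.0 and 15.3 CPM with a dose 2 father, below the dose 1 father libraries (log2 fold change 0.53, edgeR adjusted p = 0.388). A p above the threshold does not show that the doses act alike.

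The fathers' own generation offers a direct view of dose 1. In F1 testis dose 1 against control, 38 of the 39 genes were tested and none of them passed, against 4 of 19025 genes in all (0.021%). Of the 29 lower genes tested 17 were also lower there, and of the 9 higher genes 4 were higher. Kit was at 24.3, 20.1 and 21.5 CPM at F1 dose 1 and 28.5, 26.1 and 14.5 CPM in F1 controls (log2 fold change -0.07, SE 0.289). Mir6236 had a log2 fold change of 0.70 (SE 0.606) in the F1 and -2.17 in the F2, and the test of that difference gave -2.88 (edgeR adjusted p = 0.353). None of the 39 genes passed the test of a difference between the F2 and F1 effects, which 1 of 19578 genes passed (0.00511%).

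In ovaries of F2 females from the same cross, 30 of the 39 genes were tested and none passed, against 1 of 17400 genes in all (0.00575%). Of 22 lower genes 16 were lower in ovary, and of 8 higher genes 3 were higher. Over all genes tested in ovary the median log2 fold change was -0.008. Lars2 was at 569, 357 and 491 CPM in ovaries of the control cross and 240, 194 and 206 CPM in those of the dose 1 father cross. These did not overlap (log2 fold change -1.15, SE 0.329, edgeR adjusted p = 0.536). Mir6236 was at 42.8, 30.1 and 37.6 CPM against 16.1, 14.3 and 13.9 CPM, again without overlap (log2 fold change -1.32, SE 0.348, edgeR adjusted p = 0.536). Among the 17400 genes tested in ovary, 1113 were lower and 1200 higher without overlap. Rn45s did not follow, at 329.7, 371 and 296 CPM against 361, 352 and 356 CPM. The difference between testis and ovary was not tested.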

How the data were processed

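RNA-seq of whole testis gave the 6 libraries compared, which were fitted with the other 12 F2 testis libraries. The deposited values are raw counts per gene. Per the submitters' processing notes, the tools included TopHat2 2.1.1 with Bowtie2 2.4.5, then featureCounts 2.0.3 and DESeq2 1.32.0, and the build was mm39. The sources used here give neither strand setting nor annotation. Samples were grouped by the cross in the labels. Here genes were kept by edgeR's filterByExpr (minimum count 10), scaled by TMM (factors 0.972 to 1.027) and tested with edgeR 4.0.16 (R 4.3.3, quasi-likelihood, group means, Benjamini-Hochberg at 0.05); SEs come from the fold change and F statistic. The F2 and F1 effects were compared in 1 fit of 27 testis libraries. The fit was tested on simulated data.

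The members and gene lists were chosen with earlier results of these data known. Genes were named by rule: those that passed, with crosses that did not overlap and at least 1 CPM on average in the higher one, up to 15 per direction and up to 3 with predicted or clone symbols; in each list, those that passed and up to 3 further members by unadjusted p; sex steroid, protamine, Kit, Malat1, Rn45s and Lars2 genes always; up to 5 per direction in other comparisons; and the 3 on each side of the threshold. Other passing genes and list members (Sppl2c, Pebp4, Cpne5, Ccdc57, Elfn2, Neat1, Kitl, Msn, Ube4b, Gnas, Celf3 and Gm39429) were chosen after their values were seen. Some genes covered by the rule are not reported here. Gene types came from GENCODE M21, matched for 82.1% of the genes that passed and 97.6% of those tested. Alternatives were RLE scaling, no filter, DESeq2 1.42.0, a replicate block, other library sets and each library left out, and, chosen after seeing the data, leaving out 2 outlying libraries together and protein-coding genes alone. The counts set the precision: each value carries counting error and the spread of 3 libraries.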

Additional observations from a re-analysis of the deposited data

Results flagged for a closer look

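The effect of dose 1 differed between generations for 1 gene, Gm11166, by the test of the difference between the F2 effect (dose 1 father minus control cross) and the F1 effect (dose 1 minus control). The difference was 2.58 on the log2 scale (SE 0.407, edgeR adjusted p = 0.0425). In F2 testis Gm11166 was at 16.4, 15.1 and 19.6 CPM in the control cross and 17.4, 19.3 and 7.24 CPM in the dose 1 father cross, which overlap. In F1 testis it was at 14.5, 18.7 and 17.5 CPM in controls and 2.397 ± 0.223 CPM (SD, n = 3) at dose 1, none above 2.64 CPM. The 3 F1 dose 1 libraries thus lay below every other library of these 4 groups. The call was lost when any single library of the 12 was left out, other than dose 1 father C.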

How the results depend on the processing

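Against the control cross 39 genes passed; the count was 217 (82 higher, 135 lower) by DESeq2, 15 with the 6 libraries alone, 0 with all 27 testis libraries, 17 without control cross A and dose 1 father A together, 8 with protein-coding genes only, and 3 to 53 when 1 library was left out. Against the dose 1 mother cross the 8 calls became 154 by DESeq2, 2 with the 6 libraries alone, 0 with all 27 libraries and 1 to 15 with 1 library left out. Against the dose 2 father cross the count of 0 became 14 by DESeq2, 9 with the 6 libraries alone and 0 to 2 with 1 library left out. For the difference between F2 and F1 effects the 1 call became 11 by DESeq2 and 0 or 1 with 1 library left out. Whether the letters pair the samples is not stated in the labels and was not settled here. Between the main crosses, same-letter deviations correlated at 0.0634, 0.0530 and 0.00377, and those of different letters at -0.0660 to 0.0189. The fit with the letter as a replicate block gave 84 calls against the control cross and 27 against the dose 1 mother cross. It gave 0 against the dose 2 father cross and 0 for the F2 and F1 difference. All 39 genes passed by DESeq2 and in the replicate block, and 7 of them with the 6 libraries alone. The cause of these shifts was not tested. Among 2398 recomputed values of the 173 named genes, a change of direction was counted only for the 39 that passed, and none changed. Their crosses did not overlap, so leaving out 1 library could hardly reverse them. Other named genes did change sign, as Star did, from -0.27 to 0.19 with 1 library left out. The share of long non-coding genes that were lower stayed between 63.2 and 71.9%. Of 40 list medians, 15 changed sign in at least 1 alternative, 16 of 360 recomputed medians moved by more than 1 SD, and depth limited genes under 1 CPM such as Pcdha8.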
